A study of Homo sapiens with 4 samples.

Results

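The ubiquitin-conjugating enzymes, cullins and their close partners were examined in SAS cells, a line from a human squamous carcinoma of the tongue. Members were taken by gene name from the deposited count table: the UBE2 enzymes with a single-letter family name, the cullins, RBX1, SKP1, SKP2, NEDD8, the activating enzymes UBA1 to UBA6 and the COP9 subunits, leaving out UBE2C and UBE2L6. This gave 57 of the 35767 rows. Of these, 55 passed the filter on low counts, against 20098 rows in all, and the remaining 2 were UBE2U and UBE2L4. The study compared 2 libraries labelled siControl, with a genotype label of WT, and 2 labelled siNAT10, after an siRNA against the RNA acetyltransferase NAT10. The genotype label reads NAT10 knockdown for siNAT10 replicate 1 and NAT11 knockdown for siNAT10 replicate 2. The labels give no siRNA sequence, dose or time, and call the replicates biological without naming separate cultures. P-values therefore set the group difference against the scatter among these 4 libraries, which may be technical scatter only.

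Ubiquitin is a small protein that is attached to other proteins by a relay. An E1 enzyme activates it, an E2 enzyme carries it as a thioester on a cysteine, and an E3 ligase brings the loaded E2 to the substrate. The largest class of E3 ligases is built on cullins, elongated scaffolds that hold the RING protein RBX1 at one end, where the E2 docks, and an adaptor with a substrate receptor at the other. Cullins are switched on when the ubiquitin-like protein NEDD8 is attached to them, and switched off when the COP9 signalosome cuts NEDD8 off. Through receptors such as SKP2 these ligases degrade cell cycle inhibitors, and they are active in dividing carcinoma cells.

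Total counts lay between 30794757 and 36341785 per library, and 3 counts corresponded to 0.0787 to 0.102 CPM, the counts scaled to the adjusted library size. The mRNA of the siRNA target did not fall: NAT10 (GRCh38 chromosome 11, 34105602 to 34147670) reached 240.2 and 231 CPM in the libraries labelled siControl and 252 and 248 CPM in those labelled siNAT10. This is a change of 0.09 ± 0.06 on the log2 scale (± SE throughout, from 2 libraries a group), with an adjusted p of 0.293 in edgeR, and it was called in none of 11 alternative analyses. Every direction given here follows the labels. Squamous markers were only partly present: KRT17 (821 and 865 CPM in siControl) and SFN (244 and 228 CPM) were abundant, while KRT5 and DSG3 had at most 0.202 CPM in any library. The summed squamous markers were 1079 and 1108 CPM in siControl and 813 and 860 CPM in siNAT10, with 1 of 6 tested markers higher and 3 lower. KRT17 and SFN made up most of the siControl sum, so the sum says little about the other squamous markers. The part of the squamous markers in the results was not tested. The summed leukocyte markers were 5.27 and 5.71 CPM in siControl and 2.80 and 1.76 CPM in siNAT10, and PTPRC had at most 0.105 CPM. The endothelial markers summed to 2.52 and 3.07 CPM and to 3.35 and 3.76 CPM, with 1 of 3 tested higher (VWF) and 1 lower (PECAM1), and KDR had at most 0.0538 CPM. The fibroblast markers summed to 34.2 and 37.7 CPM and to 31.8 and 30.7 CPM, with 1 of 4 tested higher (PDGFRB) and 1 lower (COL1A1). The part of these lists in the results was not tested either. In bulk RNA, fewer cells of a kind and less RNA per cell cannot be told apart.

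Cullins, their RING partner RBX1, SKP1 and SKP2 were higher in both siNAT10 libraries. Beside 4 COP9 subunits that were higher, 4 were not called, and the E2 enzymes went both ways. Of the 55 tested members, 30 rose and 3 fell (edgeR quasi-likelihood test, adjusted p under 0.05), and 22 were not called. Among all tested genes, 40.4% were called, 19.7% higher and 20.7% lower. The members' share of 54.5% higher lay above that background and their share of 5.45% lower lay below it. That background holds many rows with low counts. With a filter of at least 50 counts in 2 libraries, all 55 members remained, 30 higher and 3 lower. Of the 15430 genes then tested, 49.0% were called, 3731 higher and 3825 lower. The median log2 fold change over the tested members was 0.24, beside -0.01 over all tested genes. No member changed 2-fold. Of the 33 called members, 7 changed at least 1.5-fold. Both siNAT10 libraries lay above both siControl libraries for 37 members and below them for 9, where 34.1% and 35.4% of all tested genes were separated in these directions.

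**Figure D1:**
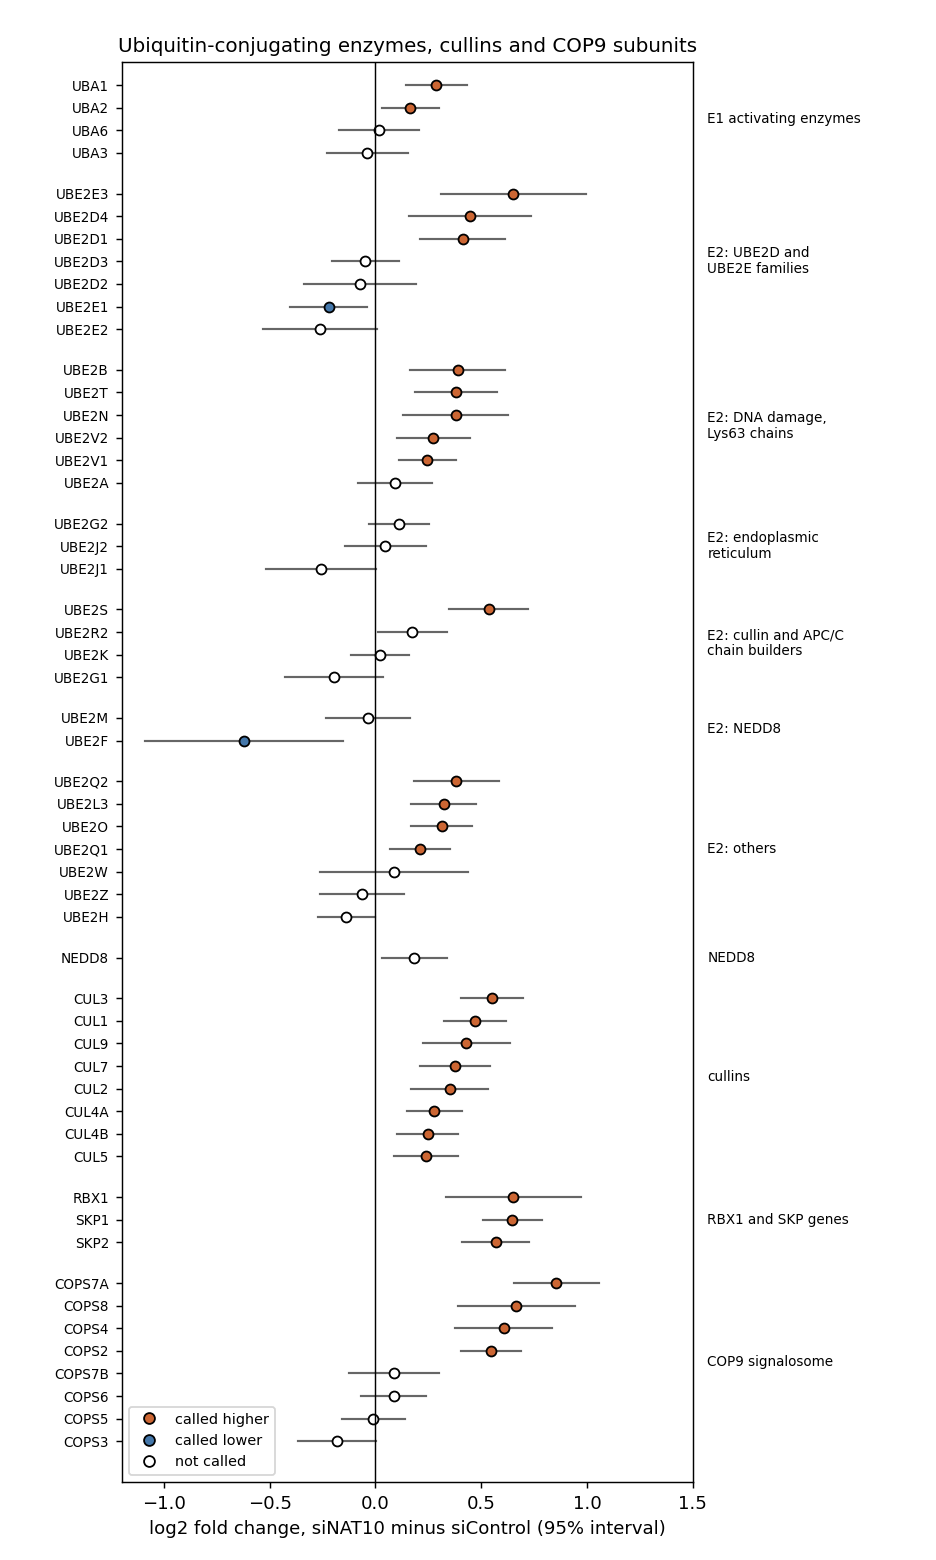
Log2 fold change (siNAT10 minus siControl, x axis) of 53 of the 55 tested members, ordered by role, with 95% intervals from the edgeR fit as horizontal lines. Filled orange points were called higher (30), filled blue points lower (2), and open points were not called. All 8 cullins lie to the right of 0.

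The split of calls depended on the scaling. With libraries scaled by their totals alone, the median of all genes moved to -0.12 and the members' calls became 22 higher and 8 lower, while for all genes they became 2688 higher and 5604 lower, against 3951 and 4169. The distance between the members' median and that of all genes was 0.25 under both scalings. A change of scaling shifts all genes by nearly the same amount, so this distance could hardly move and is no check of the rise. Of the 33 calls, 30 of them rises, 16 held in all 11 alternative analyses. These 16 were all rises: COPS7A, COPS8, COPS4, COPS2, RBX1, SKP1, SKP2, CUL1, CUL2, CUL3, CUL4A, CUL7, CUL9, UBE2S, UBE2D1 and UBE2O. The share of all called genes that held in every alternative is not given here, so 16 of 33 has no background beside it. The alternatives reuse the same 4 libraries.

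**Figure D2:**
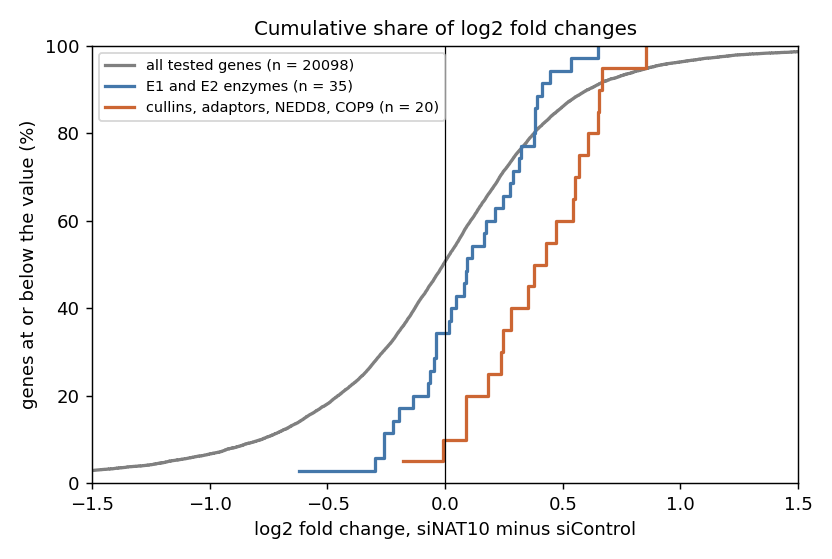
Cumulative share (y axis, %) of genes at or below each log2 fold change (x axis). The grey line holds all 20098 tested genes and the blue line the 35 tested E1 and E2 enzymes. The orange line holds the 20 genes of the cullins, RBX1, SKP1, SKP2, NEDD8 and COP9 subunits. This orange line lies furthest to the right through most of the range.

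All 8 cullins rose, by log2 fold changes from 0.24 to 0.55 with a median of 0.36, and each had a positive fold change in all 11 alternatives. Their summed level was 845 and 837 CPM in siControl and 1044 and 1049 CPM in siNAT10. CUL3, the scaffold that takes BTB-domain proteins as receptors (chromosome 2, 224470150 to 224585397), had the largest rise. It stood at 58.5 and 55.7 CPM in siControl replicates 1 and 2 and at 85.2 and 82.0 CPM in siNAT10 replicates 1 and 2. Both siNAT10 libraries were thus well above both siControl libraries, and the rise was 0.55 ± 0.07 on the log2 scale (edgeR adjusted p = 3.8e-06).

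CUL1, the scaffold of the SCF ligases that use F-box receptors (chromosome 7, 148697914 to 148801036), stood at 53.3 and 51.0 CPM in siControl and at 72.7 and 71.8 CPM in siNAT10. Replicates lay close together and the groups apart, by 0.47 ± 0.07 on the log2 scale (edgeR adjusted p = 2.51e-05). CUL4A, which works with DDB1 in chromatin and repair ligases (chromosome 13, 113208193 to 113267108), was the most abundant cullin per transcript length. Its level was 210 TPM (counts divided by exon length, then scaled per library) in siControl, beside 38.8 TPM for its paralog CUL4B and 4.80 TPM for CUL9. CUL4A rose from 503 and 515 CPM to 611 and 623 CPM (log2 fold change 0.28 ± 0.06, edgeR adjusted p = 1.28e-03). Its mean in siNAT10 was 223 TPM.

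The other 5 cullins rose from 34.9 and 30.1 to 41.7 and 41.2 CPM for CUL2, the scaffold of the VHL ligase (0.35 ± 0.09), from 33.6 and 32.5 to 43.1 and 42.7 CPM for CUL7 (0.38 ± 0.08), and from 18.0 and 18.2 to 22.6 and 26.2 CPM for CUL9 (0.43 ± 0.10). CUL7 and CUL9 are atypical, p53-binding cullins. CUL4B rose by 0.25 ± 0.07 and CUL5, which takes SOCS-box receptors, by 0.24 ± 0.07 on the log2 scale. Their groups did not overlap in CPM either. In TPM, which use no adjusted library size, the means rose only from 38.8 to 40.3 for CUL4B and from 26.6 to 27.4 for CUL5. The siControl SDs were 2.53 TPM for CUL4B and 1.87 TPM for CUL5. The calls of CUL4B and CUL5 were the less stable ones. CUL4B was not called with library totals alone (adjusted p = 0.134) or without siNAT10 replicate 1 (0.0778), and CUL5 was not called with library totals alone (0.178) or in 3 of the 4 analyses that left out a library (0.0512 to 0.0782).

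RBX1, SKP1 and SKP2 rose together, with log2 fold changes from 0.57 to 0.65, in the main analysis and in all 11 alternatives. RBX1, the RING subunit that recruits the E2 to most cullins (chromosome 22, 40951347 to 40973309), stood at 4.41 and 4.55 CPM in siControl and at 6.78 and 7.31 CPM in siNAT10 (0.65 ± 0.15, edgeR adjusted p = 1.87e-03). SKP1, which links F-box proteins to CUL1 (chromosome 5, 134148935 to 134177038), stood at 88.1 CPM in both siControl libraries and at 136 and 141 CPM in siNAT10 (0.65 ± 0.07, adjusted p = 2.29e-07). SKP2, the F-box receptor that targets the cell cycle inhibitor p27 (chromosome 5, 36151989 to 36184319), stood at 41.8 and 43.9 CPM in siControl and at 65.7 and 61.3 CPM in siNAT10 (0.57 ± 0.07, adjusted p = 5.56e-06). For each of the 3 genes both siNAT10 libraries exceeded both siControl libraries.

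**Figure D3:**
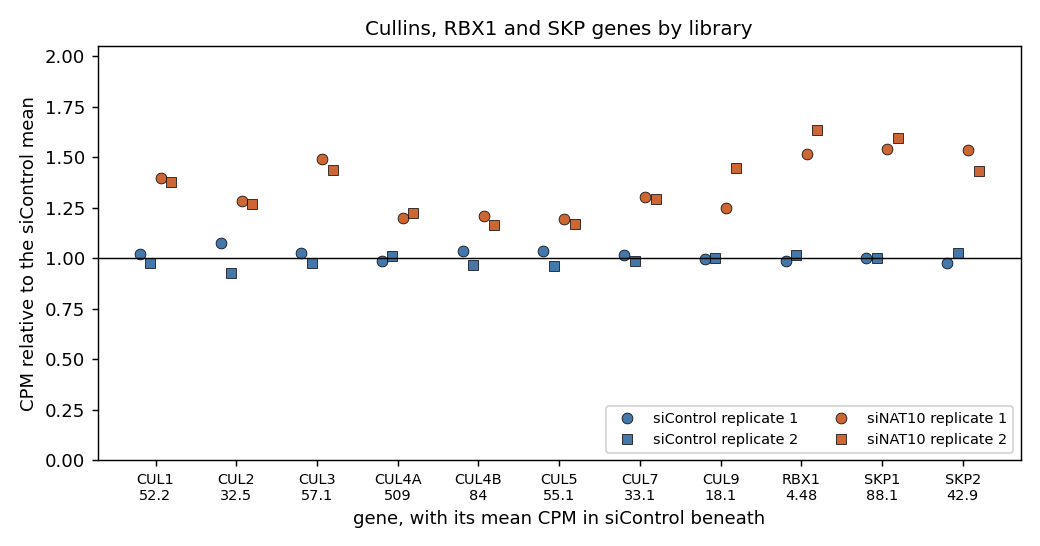
CPM of the 8 cullins, RBX1, SKP1 and SKP2 in each library, divided by the gene's mean in siControl (y axis, starting at 0), with that mean in CPM under each gene name. Blue symbols are siControl and orange symbols siNAT10, with circles for replicate 1 and squares for replicate 2. In all 11 genes both orange symbols lie above both blue ones.

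The promoter windows of COPS7A, the member with the largest rise, and of SKP1, RBX1 and CUL3 are printed because these genes lead the complexes whose subunits rose. Each window runs from 250 bases before to 50 after the RefSeq start, on the gene's strand, in GRCh38.p14. Capitals mark matches, on either strand, to the ETS motif CCGGAAG, the E-box CACGTG or the TATA box TATAAA, 3 of 9 motifs searched. COPS7A is at chr12:6723796-6724095 (plus strand), SKP1 at chr5:134176901-134177200 (minus strand), RBX1 at chr22:40951128-40951427 (plus strand) and CUL3 at chr2:224585314-224585613 (minus strand).
COPS7A: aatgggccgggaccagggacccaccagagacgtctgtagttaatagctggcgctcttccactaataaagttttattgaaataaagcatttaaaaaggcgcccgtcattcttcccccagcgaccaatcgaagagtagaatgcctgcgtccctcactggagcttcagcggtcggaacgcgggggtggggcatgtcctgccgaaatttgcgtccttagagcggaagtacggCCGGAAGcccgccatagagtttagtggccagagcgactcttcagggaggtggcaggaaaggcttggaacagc
SKP1: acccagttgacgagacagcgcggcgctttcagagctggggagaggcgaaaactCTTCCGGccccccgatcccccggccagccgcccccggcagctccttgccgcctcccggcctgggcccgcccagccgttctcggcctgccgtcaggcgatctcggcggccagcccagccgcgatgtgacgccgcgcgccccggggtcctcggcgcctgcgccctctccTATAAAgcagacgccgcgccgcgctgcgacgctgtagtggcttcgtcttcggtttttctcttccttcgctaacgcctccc
RBX1: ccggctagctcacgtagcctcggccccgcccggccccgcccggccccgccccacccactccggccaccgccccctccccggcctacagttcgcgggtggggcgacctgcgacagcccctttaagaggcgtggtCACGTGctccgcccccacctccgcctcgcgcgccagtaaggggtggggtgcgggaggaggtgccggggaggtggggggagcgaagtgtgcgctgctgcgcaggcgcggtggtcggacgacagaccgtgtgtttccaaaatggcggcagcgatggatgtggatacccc
CUL3: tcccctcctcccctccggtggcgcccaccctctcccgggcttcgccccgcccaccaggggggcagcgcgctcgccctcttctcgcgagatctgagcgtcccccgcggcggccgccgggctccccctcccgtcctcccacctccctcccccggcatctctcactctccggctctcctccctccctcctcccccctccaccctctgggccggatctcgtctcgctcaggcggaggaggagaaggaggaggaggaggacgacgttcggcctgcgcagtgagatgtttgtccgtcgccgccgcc

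COPS7A held an ETS match that began 22 bases before the start, SKP1 an ETS match 197 bases and a TATA box 30 bases before it, and RBX1 an E-box 117 bases before it, while CUL3 held none of the 3. Of the 57 members, 47 had a window. The RefSeq start lay within 100 bases of the upstream end of the deposited row for 30 of these 47. For COPS7A it lay 305 bases from that end. The ETS motif was present in 11 of these 47 (23.4%), in 7 of the 26 windows of members that rose (26.9%), in 18.0% of the windows of tested genes and in 10.3% of all 35116 windows. The E-box was present in 3 of the 26 windows of members that rose (11.54%), in 10.04% of those of tested genes and in 7.26% of all windows. The other motifs were the NRF1 motif GCATGCGC, the YY1 motif AAGATGGC, the CRE TGACGTCA, the NF-Y motif CCAAT, the SP1 motif GGGCGG and the E2F motif GGCGGGAA. The E2F motif was in 0 of the 47 windows and in 4.77% of those of tested genes. A match is a run of letters and was not tested for binding.

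The COP9 signalosome, the protease complex that removes NEDD8 from cullins, split into subunits that rose and subunits that were not called. COPS2, COPS4, COPS7A and COPS8 rose, with log2 fold changes from 0.55 to 0.85, in the main analysis and all 11 alternatives. COPS7A (chromosome 12, 6723741 to 6731875) stood at 16.1 and 14.6 CPM in siControl and at 27.1 and 28.3 CPM in siNAT10. This was the largest rise of any member, 1.81-fold (0.85 ± 0.10, edgeR adjusted p = 7.91e-07). Its paralog COPS7B, which takes the same place in the complex (chromosome 2, 231781671 to 231809254), stood at 18.6 and 19.6 CPM in siControl and at 21.8 and 18.7 CPM in siNAT10, where the groups overlapped (0.09 ± 0.10, adjusted p = 0.525). The ratio of COPS7A to COPS7B in TPM was 1.68 and 1.45 in siControl and 2.42 and 2.96 in siNAT10, and the difference between the 2 genes' changes was not tested.

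COPS2, the rising subunit with the highest level per length (33.2 TPM in siControl; chromosome 15, 49106068 to 49155661), stood at 78.3 and 75.6 CPM in siControl and at 109 and 115 CPM in siNAT10 (0.55 ± 0.07, edgeR adjusted p = 3.0e-06). COPS8 stood at 6.17 and 6.33 CPM in siControl and at 9.53 and 10.3 CPM in siNAT10 (0.67 ± 0.13), and COPS4 at 10.4 and 10.1 against 15.2 and 15.9 CPM (0.61 ± 0.11). The 3 genes encode scaffold subunits with a PCI domain. COPS5, the subunit that carries the protease activity, stood at 94.6 and 106 CPM in siControl and at 99.3 and 99.97 CPM in siNAT10. COPS5 overlaps CSPP1 on the other strand, which rose (0.18). The groups' values overlap, and the log2 fold change was -0.01 with a 95% interval from -0.16 to 0.14. COPS6, its partner in the catalytic pair and the member with the highest level per length (267 TPM in siControl), had a log2 fold change of 0.09 (interval -0.07 to 0.24). COPS3 was lower in both siNAT10 libraries, at 27.0 and 29.9 CPM against 31.4 and 33.0 CPM, without a call (-0.18 ± 0.09, adjusted p = 0.109). It was called lower with library totals alone (-0.29, adjusted p = 0.0108), and COPS6 was called higher without siControl replicate 2 (0.21, adjusted p = 7.25e-03).

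NEDD8 and the members that attach it were not called higher. NEDD8 itself (chromosome 14, 24216852 to 24232454) stood at 142 and 166 CPM in siControl and at 174 and 175 CPM in siNAT10, which missed the threshold (0.18 ± 0.07, edgeR adjusted p = 0.0532) and passed it in 5 of 11 alternatives (adjusted p from 1.08e-04 to 0.447). UBA3, the catalytic subunit of the NEDD8 E1, had overlapping groups at 31.4 and 34.6 against 34.4 and 29.7 CPM (-0.04, interval -0.23 to 0.15). UBE2M, the NEDD8 E2 for most cullins, also overlapped, at 24.2 and 27.7 against 26.3 and 24.2 CPM (-0.04, interval -0.24 to 0.16). UBE2F, the NEDD8 E2 that pairs with CUL5, fell from 3.80 and 3.85 CPM to 1.91 and 3.11 CPM. Its 2 siNAT10 libraries stood far apart, and the fall of 0.62 ± 0.22 on the log2 scale (edgeR adjusted p = 0.0321) was -0.29 without siNAT10 replicate 1 (adjusted p = 0.397) and was not called without siControl replicate 2 (0.0534) or by DESeq2 (0.189).

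**Figure D4:**
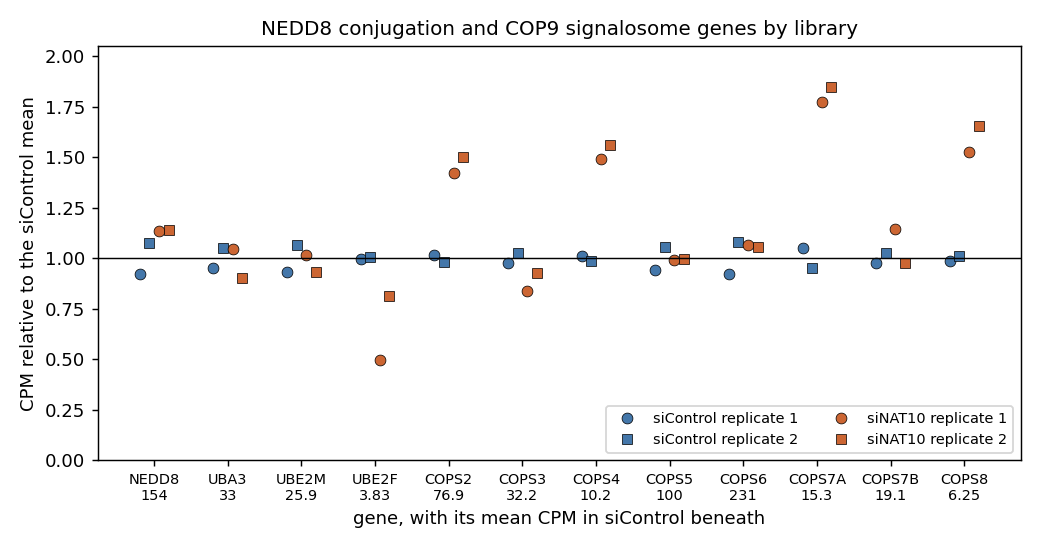
CPM of NEDD8, the NEDD8 enzymes UBA3, UBE2M and UBE2F and the 8 COP9 subunits in each library, divided by the gene's mean in siControl (y axis, starting at 0), with that mean in CPM under each gene name. Colours mark the group and shapes the replicate. COPS2, COPS4, COPS7A and COPS8 are separated upward, and the 2 siNAT10 values of UBE2F (1.91 and 3.11 CPM) lie far apart.

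Among the 5 activating enzymes, UBA1 and UBA2 rose, and UBA3 and UBA6 were not called. UBA1, which starts most ubiquitin transfer (chromosome X, 47190861 to 47215128), stood at 108 and 107 CPM in siControl and at 125 and 138 CPM in siNAT10 (0.29 ± 0.07, edgeR adjusted p = 2.29e-03). The call was lost without siNAT10 replicate 2, the higher library (0.22, adjusted p = 0.0827). UBA2, the catalytic subunit of the SUMO E1, rose from 357 and 380 to 414 and 412 CPM, with an adjusted p of 0.0448 in edgeR (0.17 ± 0.06) that passed in 5 of 11 alternatives (up to 0.528). In TPM its mean was not higher, at 248 in siControl and 244 in siNAT10. UBA6, an additional E1 for ubiquitin, was at 0.02 on the log2 scale (interval -0.17 to 0.21).

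Of the 32 E2 genes, 30 were tested, 13 rose and 3 fell, with a median log2 fold change of 0.10. These were 43.3% higher and 10% lower, beside 19.7% and 20.7% of all tested genes. With library totals alone 8 of the 30 rose and 7 fell, while 2688 of all 20098 tested genes rose and 5604 fell. The coding sequence around the catalytic cysteine is printed for the UBE2D paralogs and for the E2s of NEDD8, with UBE2N, UBE2S and UBE2L3. These enzymes share the site, while some of their RNAs were called and others were not. Each line gives 27 bases of the GENCODE release 29 coding sequence, and the capitals mark the codon of the first cysteine after the His-Pro-Asn triplet of the E2 fold.
UBE2D1: aatggaagtattTGTctcgatattctg
UBE2D2: aatggcagcattTGTcttgatattcta
UBE2D3: aatggcagcattTGTctcgatattcta
UBE2D4: aatggcagcatcTGCcttgatatcctg
UBE2M: gagggcaacgtcTGCctcaacatcctc
UBE2F: acaggggaaataTGTctgagtttattg
UBE2N: ttgggaagaataTGTttagatattttg
UBE2S: aatggcgagatcTGCgtcaacgtgctc
UBE2L3: aaggggcaggtcTGTctgccagtaatt

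In the 4 UBE2D genes this cysteine was codon 85 of 147, and in UBE2M and UBE2F, which carry extensions at their start, it was codon 111 of 183 and codon 116 of 185. The UBE2D coding sequences, which are 444 bases long, matched each other at 77.0% to 86.5% of positions, with the closest pair formed by UBE2D2 and UBE2D3.

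The UBE2D enzymes are the general partners of RING ligases, and of the 4 paralogs only UBE2D1 and UBE2D4 were called. The difference between the paralogs' changes was not tested. UBE2D1 (chromosome 10, 58334975 to 58370753) rose from 20.1 and 18.0 to 24.7 and 26.1 CPM (0.41 ± 0.10, edgeR adjusted p = 1.81e-03). UBE2D4 (chromosome 7, 43926438 to 43956136) rose from 5.90 and 6.06 to 8.40 and 7.89 CPM (0.45 ± 0.14, adjusted p = 0.0143), a call lost in DESeq2 (0.11), with library totals alone (0.0602) and without siNAT10 replicate 1 (0.0847). UBE2D2 and UBE2D3, the pair with the closest sequences, were not called, at -0.07 (interval -0.34 to 0.19) and -0.05 (interval -0.21 to 0.11). UBE2D3 had the highest level of the 4 per length in siControl (30.8 TPM), and its groups overlapped, at 89.8 and 102 CPM in siControl and 88.7 and 96.7 CPM in siNAT10.

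The UBE2E paralogs, relatives of UBE2D with extended amino termini, included the largest rise among the E2 genes. UBE2E3 (chromosome 2, 180967248 to 181076585) rose from 5.56 and 5.41 CPM to 7.10 and 10.2 CPM (0.65 ± 0.16, edgeR adjusted p = 3.49e-03). Its siNAT10 libraries were far apart, and without siNAT10 replicate 2 the log2 fold change was 0.37 and not called (adjusted p = 0.125). UBE2E1 was lower, at 29.2 and 28.4 CPM against 31.7 and 35.6 CPM, with an adjusted p of 0.0499 in edgeR (-0.22 ± 0.09) that passed in 5 of 11 alternatives (up to 0.333). UBE2E2 stood at 8.26 and 8.84 CPM against 9.52 and 10.95 CPM without a call (-0.26 ± 0.13, adjusted p = 0.113), and was called lower with library totals alone (-0.37, adjusted p = 0.0244). The tests of these genes do not compare the paralogs with each other.

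Of 6 E2 genes for DNA damage signalling and Lys63-linked chains, 5 rose and the groups of all 6 were separated upward. Among all tested genes, 19.7% rose and 34.1% were separated upward. UBE2T, which loads ubiquitin on the Fanconi protein FANCD2, rose from 29.3 and 34.1 to 38.6 and 44.1 CPM (0.38 ± 0.09, edgeR adjusted p = 2.63e-03). UBE2N, the only E2 dedicated to Lys63 chains, rose from 9.29 and 9.88 to 11.9 and 13.1 CPM (0.38 ± 0.12, adjusted p = 0.0149), a call also lost in DESeq2 (0.096) and without siControl replicate 1 (0.0613). Its inactive partners UBE2V1 and UBE2V2 rose by 0.25 ± 0.06 and 0.27 ± 0.08 on the log2 scale, the latter without a call when siNAT10 replicate 1 was left out (0.135). Of the RAD6 pair, which marks PCNA and histone H2B, UBE2B rose from 17.0 and 15.1 to 19.4 and 22.7 CPM (0.39 ± 0.11), whereas UBE2A, which overlaps NKRF, was at 0.09 (interval -0.08 to 0.27). With library totals alone only 2 of the 6 remained called, UBE2B and UBE2T, and without siNAT10 replicate 2 also 2, UBE2V1 and UBE2V2.

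UBE2S, which extends Lys11 chains on substrates of the anaphase-promoting complex (chromosome 19, 55399745 to 55407777), rose from 21.0 and 22.6 CPM to 30.6 and 32.6 CPM. The groups were well separated, by 0.54 ± 0.09 on the log2 scale (edgeR adjusted p = 8.36e-05), and the call held in all 11 alternatives. The other chain builders were not called. UBE2R2, a CDC34-like E2 of the SCF ligases, was at 0.17 ± 0.08 (adjusted p = 0.0841), UBE2K at 0.02 ± 0.07 and UBE2G1 at -0.20 ± 0.11, which was called lower with library totals alone (-0.31, adjusted p = 0.0312). UBE2G2, UBE2J1 and UBE2J2, which serve degradation from the endoplasmic reticulum, were not called either (0.11, -0.26 and 0.05). UBE2J1 was called lower with library totals alone (adjusted p = 0.0208) and without siControl replicate 1 (5.09e-03).

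Of the 7 other E2 genes that were tested, 4 rose (57.1%, beside 19.7% of all tested genes). UBE2O, a large enzyme that joins E2 and E3 activity and clears orphan proteins, rose from 74.8 and 72.7 to 94.3 and 89.0 CPM (0.31 ± 0.07, edgeR adjusted p = 1.16e-03). UBE2L3, the E2 of HECT and RING-between-RING ligases, rose from 77.1 and 76.7 to 89.96 and 103 CPM (0.32 ± 0.07), a call lost without siNAT10 replicate 2 (adjusted p = 0.0766). UBE2Q2 and UBE2Q1 rose by 0.38 ± 0.10 and 0.21 ± 0.07 on the log2 scale. UBE2Q2 was not called without siNAT10 replicate 1 (adjusted p = 0.0573), and UBE2Q1 was not called with library totals alone (0.245) or without siControl replicate 1 (0.0951), siNAT10 replicate 1 (0.0703) or siNAT10 replicate 2 (0.121). UBE2H, the E2 of the GID/CTLH ligase and the E2 with the highest level per length (138 TPM in siControl), was at 267 and 278 CPM in siControl and at 241 and 255 CPM in siNAT10, below siControl but not called (-0.14 ± 0.06, adjusted p = 0.1). It was called lower with library totals alone (adjusted p = 4.24e-03) and without siControl replicate 1 (0.0337). UBE2W and UBE2Z were at 0.09 and -0.06. UBE2U had 0 and 2 counts in siControl and 0 in both siNAT10 libraries, under the floor of 3 counts, and UBE2L4 had 2 to 6 counts in each library.

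Overlapping rows limit how single members can be read, since how reads on shared bases were assigned is not given in the sources used here. Of the 57 members, 25 share exon bases with another row. Of the 30 tested members without such a row, 15 rose and 1 fell, with a median log2 fold change of 0.17, and of the 25 with one, 15 rose and 2 fell, with a median of 0.25. UBE2V1 and the read-through row TMEM189-UBE2V1 had 6236 and 6324 counts in siControl replicate 1, and NEDD8 and NEDD8-MDP1 had 5405 and 5488, so the 2 rows of each pair cannot be read as separate genes. UBE2N shares 39.5% of its exon bases with NUDT4 on the other strand, which fell (-0.18, edgeR adjusted p = 0.0416), and UBE2F shares 16.2% with UBE2F-SCLY (-0.34, not called). Among the cullins and adaptors, CUL4A overlaps PCID2, which rose (0.65), CUL7 overlaps KLC4, which fell (-0.29), and SKP1 overlaps TCF7, which fell (-1.58), and CTD-2410N18.5, which rose (0.42). CUL3 overlaps RP11-92F20.1, which rose (0.47), and UBE2D4 overlaps POLR2J4 and RP5-1165K10.2, which rose (0.39 and 0.69). CUL1, CUL3, CUL5, CUL9, COPS2, COPS8, UBE2E3 and UBE2D4 overlap antisense rows or genes on the other strand, and the strand setting of the counting is not given in the sources used here.

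For most members, only a small share of the transcript sequence also occurred in transcripts of other loci. For each member with a coding transcript (56 genes), the share of its 31-base words that also occur in transcripts of another locus had a median of 1.60%, and it was under 5% for 42 members. It was highest for UBE2S (20.2%), which has the pseudogenes UBE2SP1 and UBE2SP2, then UBA2 (17.5%), UBE2E3 (17.1%) and UBE2M (16.0%). Over the 55 tested members, log2 fold change and transcript GC content had a Spearman correlation of -0.02, exon length one of -0.08, and siControl CPM one of -0.15, as descriptions over genes that share the same 4 libraries. Member transcripts that rose had a median GC content of 43.7%, and those not called one of 45.4%.

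In the wider ubiquitin system, rises and falls were equally many. Over 9 lists of companion genes, 55 of 270 tested genes rose and 55 fell (20.4% each), near the background of 19.7% and 20.7%, with a median log2 fold change of 0.01. The substrate receptors that plug into the cullins held calls in both directions. Of 58 F-box genes, which bind SKP1 and CUL1, 10 rose and 16 fell, of 41 elongin BC-box genes for CUL2 and CUL5 6 rose and 12 fell, of 28 DDB1 and DCAF genes for CUL4 5 rose and 7 fell, and of 72 BTB genes for CUL3 15 rose and 12 fell. The share called was 37.5% to 44.8% in these 4 lists, near the 40.4% of all tested genes. FBXO2, a receptor for glycoproteins, fell from 59.5 and 72.9 to 16.5 and 14.997 CPM (-2.07 ± 0.10), VHL fell from 71.5 and 79.6 to 47.6 and 48.1 CPM (-0.66 ± 0.07), DDB2, a DNA damage receptor, fell from 76.0 and 71.4 to 42.7 and 41.8 CPM (-0.80 ± 0.07), and KCTD12 rose from 9.47 and 9.12 to 25.5 and 26.6 CPM (1.49 ± 0.10). FBXO2 overlaps FBXO44, which also fell (-1.35). The other receptors named by smallest p were FBXO4 (-0.99), DCAF5 (-0.53), SPSB3 (-0.81), SOCS3 (-0.51) and SOCS2 (-0.91), which fell, and FBXO22 (0.71), IVNS1ABP (0.68), KLHL29 (1.17), BTBD1 (0.64), DCAF1 (0.40) and DDA1 (0.43), which rose.

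Among the closer partners, NAE1, which forms the NEDD8 E1 with UBA3, rose from 51.1 and 47.2 to 70.7 and 72.6 CPM (0.54 ± 0.07, edgeR adjusted p = 6.74e-06) while UBA3 did not pass the test. Of 15 cullin cycle regulators, 2 rose and 2 fell, with CACUL1, a CUL1-associated gene, (-0.50) and DCUN1D3 (-0.58) falling and ARIH1 (0.28) and GLMN (0.38) rising. Of 13 other E1 and E2 genes 4 rose, among them UFC1 (0.89) and ATG3 (0.40), and 2 fell, among them MOCS3 (-0.56). Of 17 genes of the SUMO machinery 4 rose, among them SUMO2 (0.54), SENP7 (0.53) and PIAS1 (0.37), and 2 fell, among them the protease gene SENP6 (-0.38). Of 14 precursor genes of ubiquitin and its relatives 4 rose, including the ubiquitin-ribosomal fusion RPS27A (0.46 ± 0.06), and 1, ISG15, fell (-1.996 ± 0.07). Of 18 genes of the anaphase-promoting complex, the ligase that UBE2S serves, 6 rose and 1 fell, with its activator CDC20 rising from 19.8 and 21.3 to 43.7 and 44.9 CPM (1.10 ± 0.09), beside ANAPC15 (0.75), CDC26 (0.52) and ANAPC5 (0.50). The share called in these lists ran from 26.7% (cullin cycle regulators) to 46.2% (other E1 and E2 genes), beside 40.4% of all tested genes. For the anaphase-promoting complex 33.3% rose and 5.56% fell, beside 19.7% and 20.7% of all tested genes. SUMO2 overlaps HN1, RPS27A overlaps CLHC1 and ISG15 overlaps RP11-54O7.10.

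**Figure D5:**
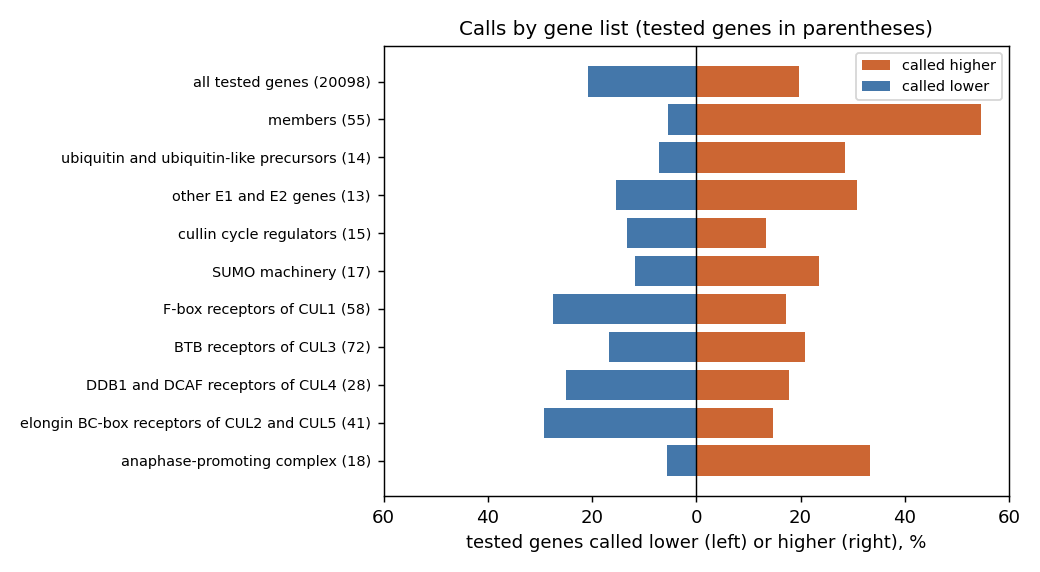
Percentage of tested genes called lower (blue, to the left) or higher (orange, to the right) over all tested genes, the members and 9 lists of companion genes, with the number of tested genes in parentheses. The members have 54.5% higher and 5.45% lower, while all tested genes have 19.7% and 20.7%.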

How the data were processed

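RNA was sequenced from SAS cells in 4 libraries, 2 per group. The authors deposited a table of whole-number counts per gene, and per the submitters' processing notes fastp 0.23.4, STAR 2.5.3a, featureCounts and GRCh38 were used, with roles and order not given. For the annotation release, the strand setting and molecular identifiers, the entry is "not given in the sources used here". Between 72.0% and 73.5% of the counts from 1 to 50 were even in each library. Where both mates of a pair are counted, a fragment gives 2 counts, so the printed counts and the floor of 3 counts may stand for fewer fragments. Whether mates were counted separately was not tested, and a fit on halved counts was one of the alternatives. Genes were kept with edgeR's filterByExpr, scaled by TMM (a trimmed mean of ratios that sets library size) and tested with edgeR 4.0.16 (glmQLFit and glmQLFTest, R 4.3.3, two-sided) on 2 residual degrees of freedom. P-values were adjusted by Benjamini-Hochberg over all 20098 tested genes, and a gene was called at an adjusted p under 0.05. Fold changes are siNAT10 over siControl. CPM used the TMM-scaled library sizes, and TPM used the deposited exon lengths without TMM scaling. The script was tested on simulated data. The 11 alternatives were RLE size factors, library totals alone, DESeq2 1.42.0, no filter, a 50-count filter, halved counts, a replicate block and leaving out each library. The members and companion lists were chosen with earlier results of these data known. Values in all libraries are given for called members with an absolute log2 fold change of at least 0.4, for differing paralogs and where the order of roles needs them, and up to 4 called genes with the smallest adjusted p are named per companion list. Promoter windows came from RefSeq (GRCh38.p14) and coding sequences from GENCODE release 29. Chi-square per degree of freedom between replicates was 8.68 and 5.14 on the counts as deposited and 4.34 and 2.57 on halved counts, so neither pair was treated as repeats of a single library. This does not show that replicates were separate cultures. Single values of some genes are not reported here, though these genes are included in the counts and medians.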

Additional observations from a re-analysis of the deposited data

How the results depend on the processing

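With library totals alone 8 members were called lower instead of 3, and the members' median log2 fold change was 0.1272 instead of 0.24. DESeq2 called 1 member lower. Leaving out a library gave 0 (without siControl replicate 2) to 5 (without siControl replicate 1) members called lower and 21 (without siNAT10 replicate 2) to 31 called higher, with 6128 to 7795 genes called in all, and DESeq2 called 5611 genes in all against 8120. No member reversed a call. The labels share replicate numbers between the groups, and the deviations of same-numbered libraries had a correlation of r = -0.033 over 20098 genes. This single value cannot show whether same-numbered libraries shared a culture or batch, and the labels do not say. A fit with a replicate block called 30 members higher and 2 lower, and 8254 genes in all. With 2 libraries per group, small changes near the threshold are not resolved, and the intervals are widest for UBE2F, UBE2W, UBE2E3 and RBX1. Without siNAT10 replicate 2 the rise of UBE2E3 was not called.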
